A study of Mus musculus with 6 samples.

Results

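The Hox genes of all 4 mouse clusters were followed in presomitic mesoderm (PSM), the tissue that is cut into somites, on 6 genome-wide expression arrays. The members were all probe sets of the table that the annotation gives exactly 1 gene symbol made of Hox, a cluster letter from a to d and a number. They were 33 probe sets of 25 genes, out of 19551 probe sets that are not array controls and 10290 genes with a probe set of 1 symbol. RefSeq lists 39 such genes, and 14 have no member probe set.

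Each array held RNA of 1 pool of 3 dissected anterior PSMs from embryos of embryonic day 8.75 on a C57BL6/6J background, and each genotype had 3 pools. Pools of genotype R26R AC/AC served as control, those of genotype R26R AC/AC;T-Cre as mutant, so that all pools carried the AC allele and the mutant ones the T-Cre transgene as well. T-Cre is known as a Cre recombinase under the promoter of T (Brachyury), active in the primitive streak and the mesoderm that leaves it, and AC, which the labels do not spell out, is taken here for A-CREB, a dominant-negative protein that blocks CREB factors and is made once Cre has acted. No pool carried T-Cre without AC, so Cre and AC cannot be told apart here. Control and mutant PSM were compared to ask which Hox genes differ between them.

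Hox genes encode homeodomain transcription factors that give the segments of the body axis their identity. Within a cluster the genes lie in the order in which they are switched on: those with low paralogue numbers come on first and reach far forward, and those with high numbers come on later and stay further back. In the PSM their expression is set as cells leave the tail bud, under Wnt, FGF, retinoic acid and Cdx inputs, and Hoxd1 is known for transcription in stripes near the front of the PSM that depend on Notch signalling.

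The promoters of Hoxd1, the member whose genotype difference passed the test, of Hoxd3, a further low-numbered gene of its cluster, and of Hoxb1, the other member of paralogue number 1, are shown to let a reader compare them. Each is the 250 bases before the RefSeq start in build GRCm38.p6 on the plus strand, at chr2:74762730-74762979 for Hoxd1, chr2:74711743-74711992 for Hoxd3 and chr11:96365508-96365757 for Hoxb1. Capitals mark matches on either strand to any of the 8 motifs named after the sequences.
Hoxd1: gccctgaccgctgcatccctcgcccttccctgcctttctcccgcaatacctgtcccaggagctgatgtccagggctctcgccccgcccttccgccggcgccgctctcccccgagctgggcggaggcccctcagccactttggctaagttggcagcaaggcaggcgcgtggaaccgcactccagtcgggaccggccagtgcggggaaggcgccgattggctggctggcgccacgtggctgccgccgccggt
Hoxd3: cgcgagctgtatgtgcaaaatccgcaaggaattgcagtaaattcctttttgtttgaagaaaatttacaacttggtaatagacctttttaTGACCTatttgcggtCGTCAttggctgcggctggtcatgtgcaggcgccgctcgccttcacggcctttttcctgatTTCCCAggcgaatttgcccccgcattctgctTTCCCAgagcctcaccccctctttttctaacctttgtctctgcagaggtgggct
Hoxb1: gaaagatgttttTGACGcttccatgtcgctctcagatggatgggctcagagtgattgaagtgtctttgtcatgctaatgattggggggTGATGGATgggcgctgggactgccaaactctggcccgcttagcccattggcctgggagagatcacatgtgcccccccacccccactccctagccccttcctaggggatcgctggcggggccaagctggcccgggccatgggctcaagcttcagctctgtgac

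The motifs were the full cAMP response element (CRE, the site bound by CREB factors) TGACGTCA, its core TGACG, the T-box core GGTGTGA, the RBPJ site TGGGAA, the TCF/LEF site CTTTGAT, the nuclear receptor core AGGTCA, the Pbx-Hox site TGATNNAT and the TATA box TATAAA. The full CRE contains its core. Of the 25 member genes 14 had a promoter entry, with 15 promoters between them. The full CRE was in 0 of these 15 promoters and in 1.55% of all 32851 promoters of the same length. The CRE core was in 4 of 15, those of Hoxd3, Hoxd8, Hoxa5 and Hoxb1, and in 17.8% of all promoters. In Hoxd3 it lay 146 to 142 bases before the start and in Hoxb1 238 to 234 bases before it. The Hoxd1 window, with a GC content of 71.6%, held 0 of the 8 motifs, while that of Hoxd3 (49.2%) also held the RBPJ site, found in 2 of 15 and in 21.6% of all, and the nuclear receptor core, found in 4 of 15 and in 14.0% of all. The Pbx-Hox site was in 2 of 15, among them Hoxb1, and in 7.68% of all. The T-box core was in 1 of 15 (3.33% of all), the TCF/LEF site in 1 (3.21%) and the TATA box in 2 (12.4%). These are matches of letters and say nothing on binding.

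The arrays fell into sets by a spike-in ratio, unevenly split between the genotypes, and many Hox signals differed between these sets. Whether the ratio or another difference between pools lay behind this was not tested. The 3' to 5' ratio of the dap spike-in, an RNA added before labelling, was 22.9, 23.8 and 19.6 in control 1, mutant 1 and mutant 2 (high-ratio arrays) and 10.2 to 12.2 in control 2, control 3 and mutant 3 (low-ratio arrays). Of the 25 Hox probe sets above the signal filter described next, 15 read lower in the high-ratio than in the low-ratio arrays in both genotypes, against 34.2% of all 11731 probe sets above it. The median log2 gap between the high-ratio and the low-ratio arrays was −0.41 for these Hox probe sets in control and −0.21 in mutant, against 0.00 and −0.02 over all 11731. It was largest in control for the Hoxd cluster (−0.79, 5 probe sets) and smaller for Hoxb (−0.47, 7), Hoxc (−0.35, 6) and Hoxa (−0.16, 7). That gap rests on control 1, the only high-ratio control. In mutant it was −0.33 for Hoxd, −0.28 for Hoxb, −0.06 for Hoxc and 0.12 for Hoxa. Differences within both sets of arrays are therefore given for Hox probe sets described in full and for the median of each cluster and class. Each set holds 1 pool of 1 genotype and 2 of the other and so has no error of its own. The part of this split in the genotype differences was not tested beyond those values and the fit with the split as a block.

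**Figure D1:**
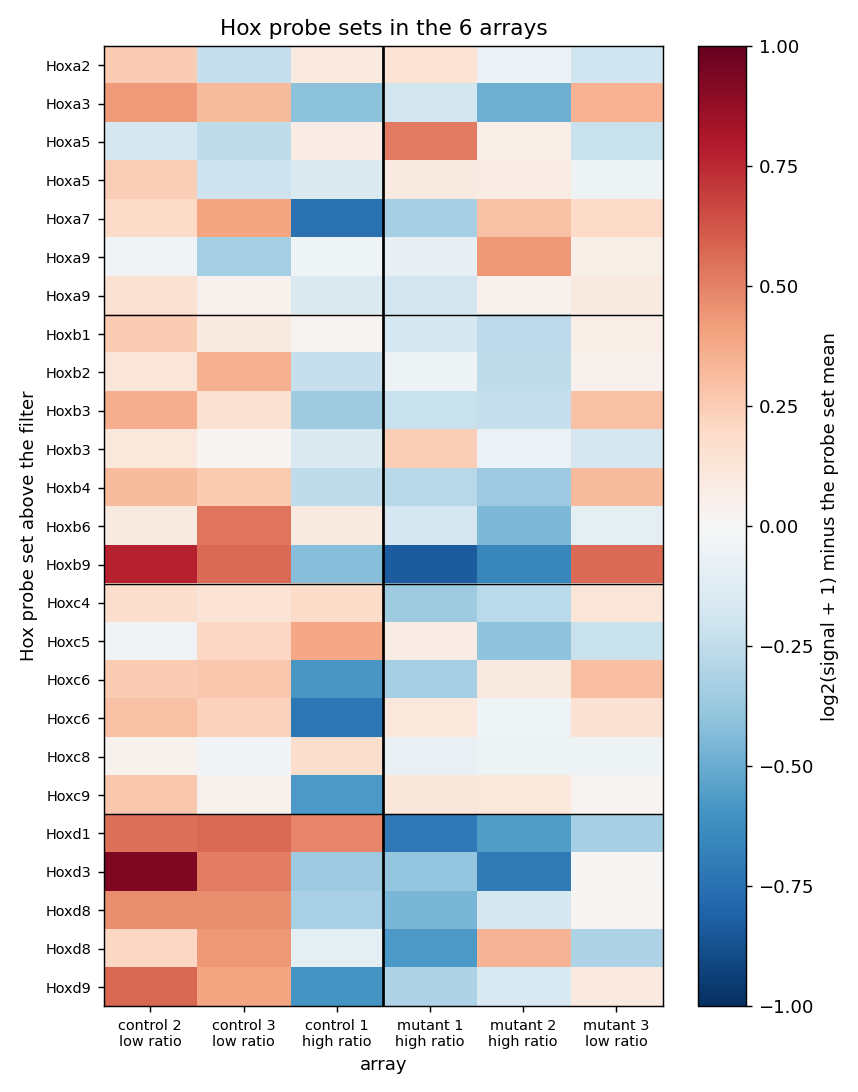
Colour shows log2(signal + 1) of each of the 25 Hox probe sets above the filter (rows, by cluster) minus that probe set's mean, in the 6 arrays (columns, control left of the black line and mutant right of it). Hoxd1 is high in all 3 control arrays and low in all 3 mutant arrays, while Hoxb9, Hoxd3 and Hoxd9 are low in control 1 as well.

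Signals are linear values on the authors' scale, and differences are mutant minus control of log2(signal + 1), with limma's standard error (SE) and 3 pools per genotype. A probe set was tested where the mean of its 6 log2 values was at or above the 40th percentile, a geometric mean signal of 349. Of the 33 members, 25 probe sets of 20 genes passed this filter and 8 did not. Adjusted p is Benjamini-Hochberg over all 11731 tested probe sets, and a change was called under 0.05. Signals of different probe sets depend on their probes and are not compared with each other. The labels call the pools biological replicates.

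Hoxd1 fell, and it was the only one of the 25 tested Hox probe sets to pass in limma's test (1 lower and 0 higher, against 0.443% and 0.247% of all tested probe sets). Control pools 1, 2 and 3 read 3755, 3907 and 3947, while mutant pools 1, 2 and 3 read 1632, 1817 and 2119. All mutant pools lay below all control pools. The mean was 3870 ± 102 (SD, n = 3) in control and 1856 ± 246 in mutant, a log2 difference of −1.07 (SE 0.12, 95% confidence interval −1.33 to −0.80, limma adjusted p = 0.00448), or 2.10-fold. Within the high-ratio set Hoxd1 differed by −1.12, within the low-ratio set by −0.89, and by −1.01 with the split as a block (limma adjusted p = 5.74e-05). The difference lay between −1.17 and −0.98 when 1 array at a time was left out, with the call kept each time. In an equal-variance test without limma's moderation Hoxd1 did not pass (adjusted p = 0.123), and 0 Hox probe sets did, with 1 at an unadjusted p under 0.05, in a test that called 4 of all 11731 probe sets. With array quality weights in limma 6 of the 25 Hox probe sets were called lower, against 5.71% of all tested probe sets. These weights were lowest for control 1, the only high-ratio control. In bulk tissue, fewer cells that express a gene and less RNA per cell cannot be told apart.

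**Figure D2:**
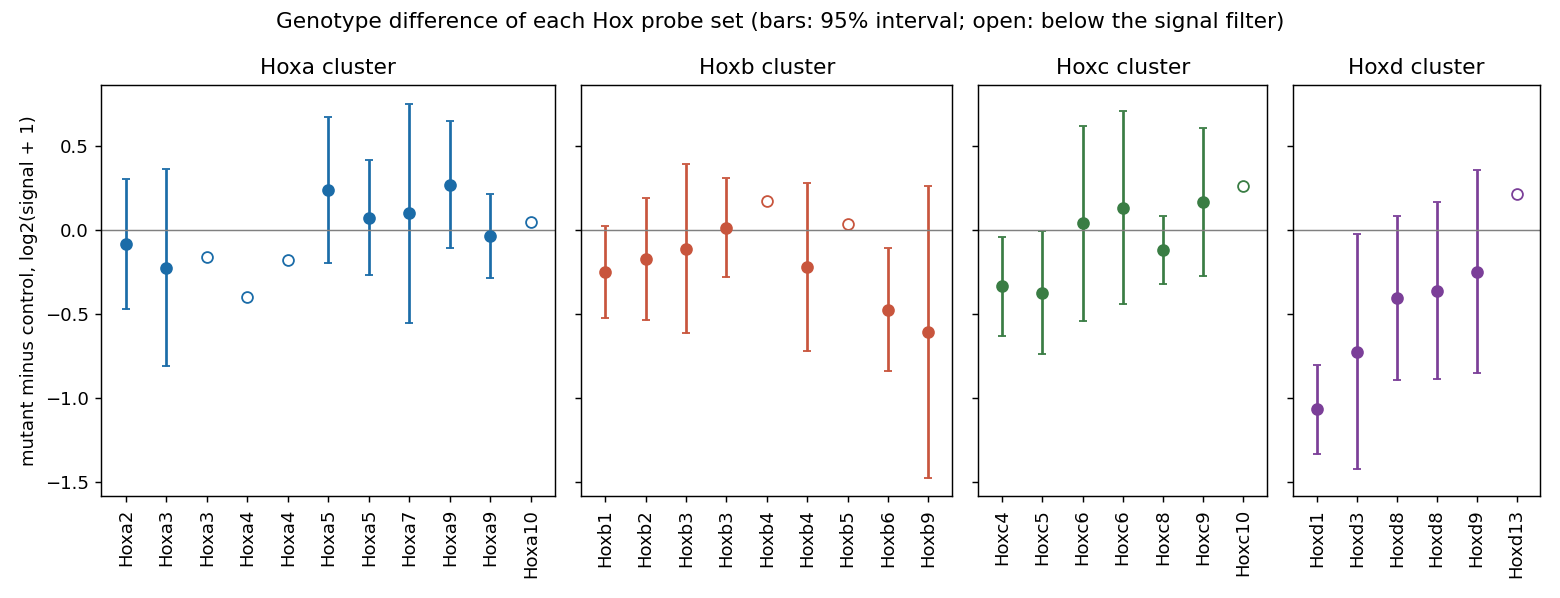
Points give the mutant minus control difference in log2(signal + 1) of all 33 Hox probe sets, ordered by paralogue number within each cluster. Bars are limma's 95% confidence intervals (3 pools per genotype), and open points are the 8 probe sets below the filter, without a test. Hoxd1 lies at −1.07 with an interval well below 0, and most other intervals include 0.

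The other Hoxd members had negative differences above the filter but did not pass. Hoxd3, known for its part in the first neck vertebrae, read 342, 843 and 626 in control and 337, 268 and 442 in mutant. Control 1 lay among the mutant pools, so the genotypes overlapped. All 3 high-ratio arrays read below all 3 low-ratio ones whatever their genotype. The same was so for Hoxd9 and for the first of the Hoxd8 probe sets. The difference was −0.72 (SE 0.31, limma adjusted p = 0.353), with −0.19 within the high-ratio and −0.71 within the low-ratio arrays. Hoxd8 has 2 probe sets, both tested. The first (1431099_at) read 1448, 2501 and 2494 in control and 1319, 1606 and 1837 in mutant, a difference of −0.40 (SE 0.22, limma adjusted p = 0.467). The second (1433638_s_at) read 725, 894 and 1045 in control and 520, 983 and 625 in mutant, a difference of −0.36 (SE 0.23, limma adjusted p = 0.550). Both overlapped between the genotypes, and their differences were 0.01 and −0.02 in the high-ratio set, against −0.44 and −0.63 in the low-ratio set. Hoxd9, a posterior gene of the lower trunk, had −0.25 (SE 0.27, limma adjusted p = 0.750), with 0.36 within the high-ratio and −0.39 within the low-ratio arrays. Hoxd13, the last gene of the cluster and known for digits and genitalia, stayed below the filter, with mean signals of 79.6 in control and 96.0 in mutant.

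Whether Hoxd1 changed unequally to these genes was asked with the log2 ratio of Hoxd1 to each of them within an array. The ratio of Hoxd1 to Hoxb1 differed by −0.82 between mutant and control, that to Hoxd9 by −0.82, and those to the 2 Hoxd8 probe sets by −0.66 and −0.71, and in these 4 the genotypes did not overlap. The ratio to Hoxd3 differed by −0.34 and overlapped. Within the high-ratio arrays the 5 ratios differed by −1.49 to −0.88 and within the low-ratio arrays by −0.78 to −0.18, the last for Hoxd3. Over the 5 ratios the exact permutation p, two-sided, was 0.1 for each of the 4 and 0.7 for Hoxd3, and 0.125 and 0.7 after Benjamini-Hochberg adjustment. With 3 pools against 3, 0.1 is the smallest p that this test can give. Hoxd1 entered these ratios because it was called on the same arrays, so the lack of overlap is no independent support for an unequal change.

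In the Hoxb cluster 0 of 7 tested probe sets passed, with differences of −0.61 to 0.01. Hoxb6, a gene of the upper trunk, read 1038, 1037 and 1411 in control and 870, 714 and 915 in mutant. All 3 mutant values lay below the control values, which was so for 4 of the 25 tested Hox probe sets and for 10.5% of all tested ones. The difference was −0.47 (SE 0.16, limma adjusted p = 0.245), the same −0.40 in the high-ratio arrays and in the low-ratio ones. Hoxb1, known for the identity of a hindbrain segment, read 2360, 2751 and 2465 in control and 2045, 1929 and 2414 in mutant. Its genotypes overlapped through mutant 3, with a difference of −0.25 (SE 0.12, limma adjusted p = 0.420) and −0.25 and −0.11 within the high-ratio and low-ratio arrays. Hoxb9, which acts on the ribs, read 2294, 5239 and 4553 in control and 1730, 1962 and 4565 in mutant. Here the 3 high-ratio arrays were low and the 3 low-ratio arrays high whatever their genotype, as they were by a small margin in Hoxb1. The Hoxb9 difference was −0.61 (SE 0.39, limma adjusted p = 0.538), with −0.32 and −0.10 within the sets. It ran from −0.34 without mutant 1 to −1.04 without mutant 3, with −0.97 without control 1, and did not pass in any of these. Hoxb2, Hoxb3 and Hoxb4 had differences of −0.22 to 0.01 over their 4 tested probe sets. Hoxb5 and a second Hoxb4 probe set (1451761_at) stayed below the filter, with mean signals of 321 and 330, and of 138 and 149, in control and mutant, the latter a difference of 0.18.

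**Figure D3:**
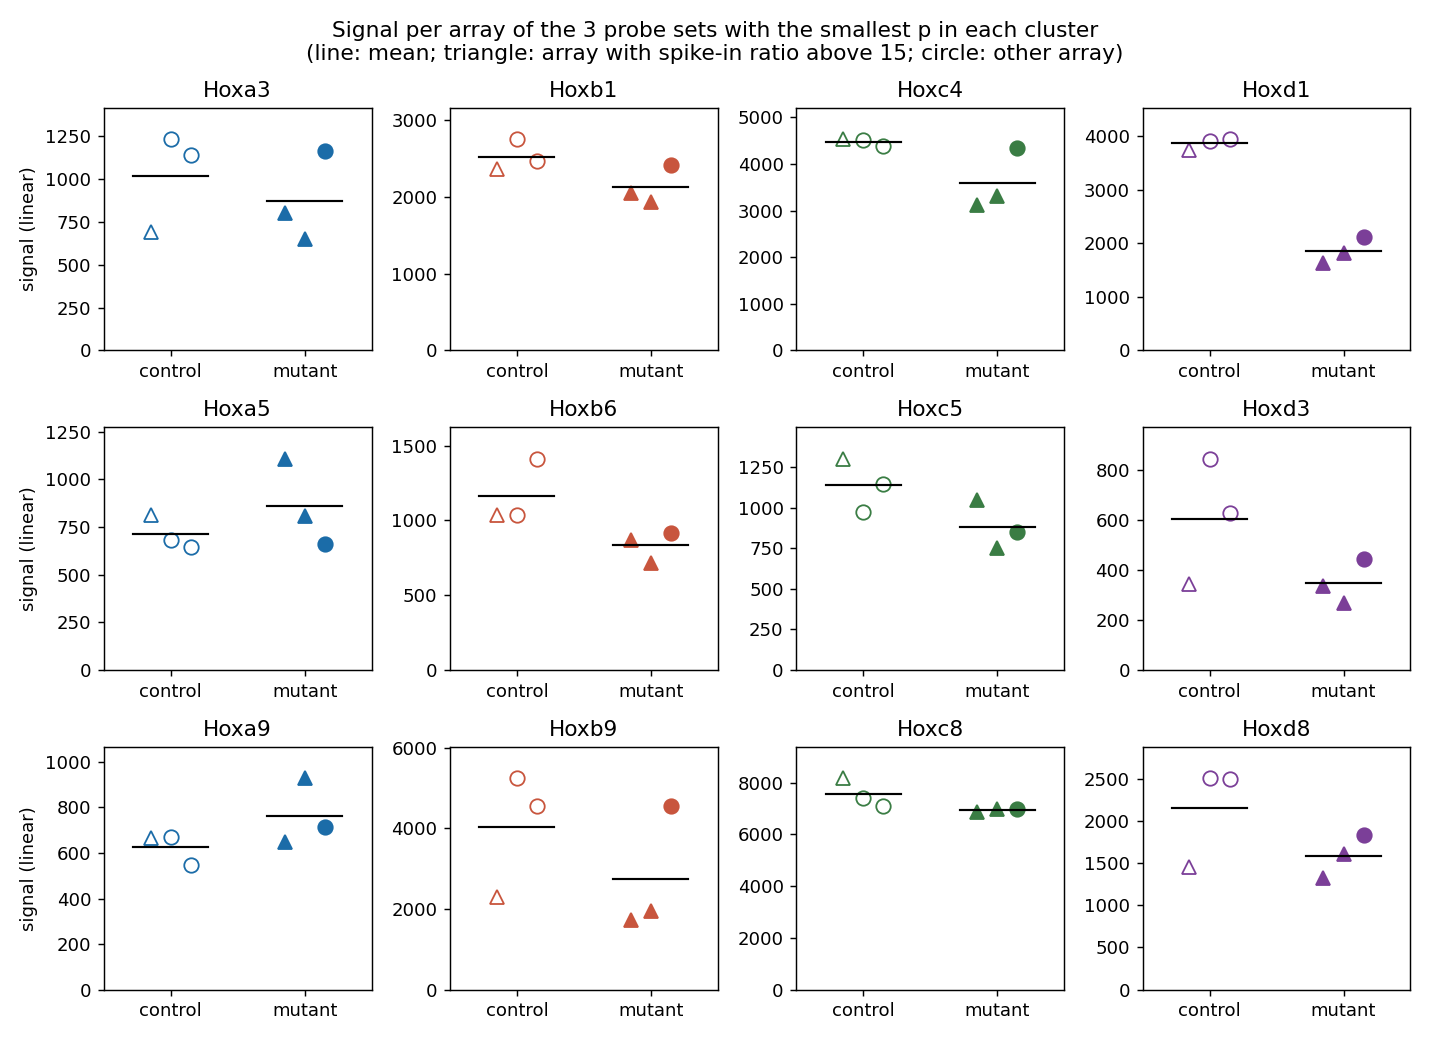
Linear signal in each array of the 3 tested probe sets with the smallest p in each cluster (columns from Hoxa to Hoxd). Open symbols are control and filled ones mutant, triangles are the high-ratio arrays, circles the low-ratio arrays, and lines the means of 3 pools. The genotypes are apart in Hoxd1, Hoxb6, Hoxc4 and Hoxc8. In Hoxa3, Hoxb1, Hoxb9, Hoxd3 and Hoxd8 all triangles lie below all circles, and in Hoxa5 all lie above them.

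In the Hoxc cluster 0 of 6 tested probe sets passed, with negative differences for Hoxc4, Hoxc5 and Hoxc8. Hoxc4 read 4530, 4510 and 4385 in control and 3120, 3304 and 4332 in mutant. Its genotypes were apart by a small margin, since mutant 3 lay just under the control pools. The difference was −0.33 (SE 0.13, limma adjusted p = 0.306), made up of −0.50 within the high-ratio and −0.04 within the low-ratio arrays. Hoxc5 read 1302, 973 and 1148 in control and 1046, 752 and 852 in mutant. Mutant 1 lay above control 2, and the difference was −0.37 (SE 0.16, limma adjusted p = 0.360), with −0.55 and −0.31 within the sets. Hoxc8, known for the identity of thoracic vertebrae, read 8156, 7389 and 7081 in control and 6851, 6975 and 6983 in mutant. The genotypes did not overlap, but the difference was small (−0.12, SE 0.09, limma adjusted p = 0.626), with −0.24 and −0.05 within the sets. Both Hoxc6 probe sets and Hoxc9 had small positive values, 0.04, 0.13 and 0.17, and in all 3 control 1 read lowest of the control pools (236, 212 and 880). Hoxc10, of the group that keeps lumbar vertebrae free of ribs, stayed below the filter and was uneven in control, with 39.3, 317 and 230, against 319, 142 and 110.5 in mutant.

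Hoxa members showed no common direction, with 3 negative and 4 positive values among 7 tested probe sets and 0 called. Hoxa9, a posterior gene also known from leukaemia, has 2 tested probe sets that differed in sign. One (1421579_at) read 666, 668 and 546 in control and 647, 927 and 713 in mutant, a difference of 0.27 (SE 0.17, limma adjusted p = 0.524). The other (1455626_at) read 8579, 10559 and 9798 in control and 8384, 9779 and 10105 in mutant, a difference of −0.03 (SE 0.11, limma adjusted p = 0.933). Within the high-ratio and low-ratio arrays the first differed by 0.22 and 0.24 and the second by 0.078 and −0.0095. For Hoxa5, which acts at the border of neck and thorax and in the lung, the differences were 0.24 (SE 0.19, 1443803_x_at) and 0.08 (SE 0.15, 1448926_at), at mean signals of 714 ± 87.7 (SD, n = 3) and 741 ± 131 in control and of 859 ± 228 and 774 ± 42.2 in mutant. Both turned sign between the sets, with 0.22 and 0.23 within the high-ratio and −0.0075 and −0.070 within the low-ratio arrays. Hoxa3, known for thymus and neck structures, had −0.22 (SE 0.26) for 1427433_s_at, where control 1, mutant 1 and mutant 2 read 690, 805 and 653 and the other arrays 1142 to 1234, so that it differed by 0.072 and −0.028 within the sets. Its second probe set (1452421_at) stayed below the filter, at 345 in control and 314 in mutant. Hoxa2, a gene of the branchial arches, had −0.08 and Hoxa7 0.10, and Hoxa4 (2 probe sets) and Hoxa10 stayed below the filter, with mean signals of 50.6 to 165 and of 299 to 305.

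Taken by cluster over all members, low signals included, the median difference was −0.38 for the 6 Hoxd probe sets, −0.17 for the 9 of Hoxb, −0.03 for the 11 of Hoxa and 0.04 for the 7 of Hoxc. Negative values were seen in 5 of 6, 6 of 9, 6 of 11 and 3 of 7, in the same order. Over all 33 members the median was −0.12 and 20 were negative, against a median of 0.03 over all 19551 probe sets. Above the filter 17 of 25 were negative, against 50.4% of all tested probe sets. The sign of the Hoxc median was not stable: it was −0.02 after quantile normalization and −0.04 among the tested members. Leaving out 1 array moved the Hoxd median between −0.64 (without control 1) and −0.22 (without mutant 1), and that of Hoxb between −0.31 (without control 1) and −0.06 (without control 3), with −0.12 without control 2, −0.09 without mutant 2 and −0.28 without mutant 3. The Hoxc median lay between −0.24 (without control 1) and 0.19 (without control 3), and that of Hoxa was −0.22 without control 1.

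By paralogue number, the anterior members (1 to 4) had a median of −0.20, with 12 of 14 probe sets negative. The middle members (5 to 8) had 0.04, with 5 of 11 negative, and the posterior ones (9 and up) 0.11, with 3 of 8 negative. The middle value became −0.02 after quantile normalization, and without control 1 the 3 medians were −0.33, −0.24 and −0.24. The anterior median was −0.34 without mutant 3, −0.11 without control 2 and −0.09 without mutant 2. Among tested members the medians were −0.22 (10), −0.04 (10) and −0.03 (5). An unadjusted limma p under 0.05 was seen for 5 of the 25 tested members, all lower (Hoxd1, Hoxb6, Hoxc4, Hoxd3 and Hoxc5), and in no member with a higher value, against 7.47% lower and 6.16% higher over all tested probe sets. None had 3 mutant values above the control values, which 9.53% of all tested probe sets had. Members share arrays and are not replicates, so these counts carry no test.

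**Figure D4:**
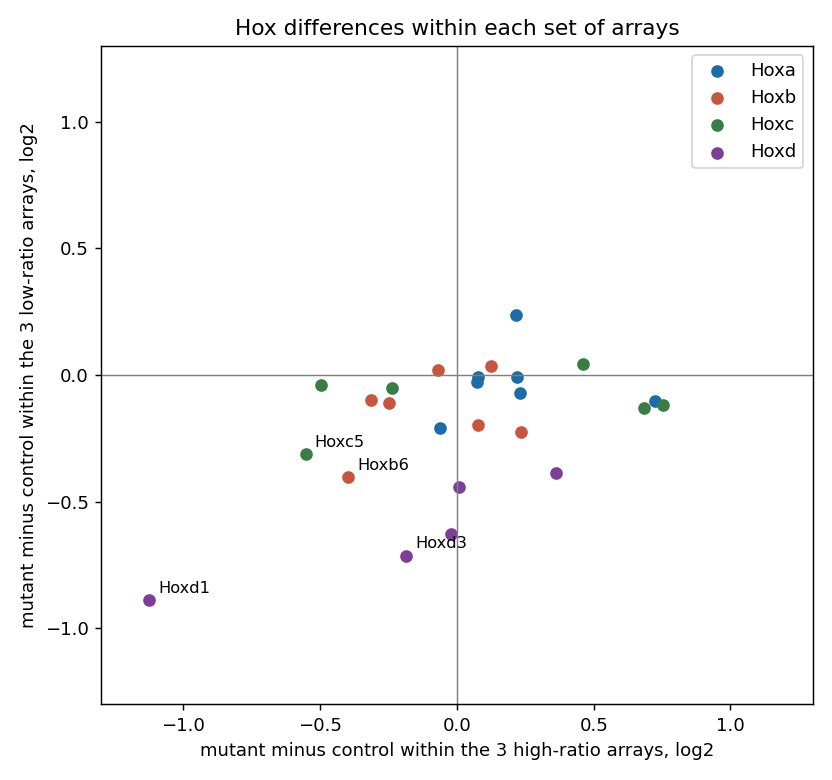
Mutant minus control difference in log2(signal + 1) of the 25 tested Hox probe sets within the 3 high-ratio arrays (horizontal axis) and within the 3 low-ratio arrays (vertical axis), coloured by cluster. Hoxd1 lies apart at the lower left, at −1.12 and −0.89, and the other Hoxd probe sets are negative on the vertical axis, between −0.71 and −0.39.

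The clusters differed in how the values sat within the sets of arrays. The Hoxd median over all members was −0.01 in the high-ratio set and −0.54 in the low-ratio set. The medians were 0.46 and −0.12 for Hoxc, 0.21 and −0.03 for Hoxa, and 0.08 and −0.10 for Hoxb. By class they were −0.06 and −0.10 for anterior, 0.16 and −0.10 for middle and 0.34 and −0.11 for posterior members. Of the 25 tested members, 10 were negative in both sets: Hoxa2, Hoxb1, Hoxb6, Hoxb9, Hoxc4, Hoxc5, Hoxc8, Hoxd1, Hoxd3 and 1 of the Hoxd8 probe sets. Some were near 0 in a set, such as Hoxc4 (−0.04) and Hoxc8 (−0.05) in the low-ratio arrays. No share over all tested probe sets stands beside this count, so it is not read as a trait of the Hox genes. With the split as a block, Hoxd1 stayed the only member called, while 2.67% of all tested probe sets were called lower, and the median over all members was −0.01.

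Of the 8 genes with more than 1 probe set, 5 gave 1 sign (Hoxa3, Hoxa4, Hoxa5, Hoxc6 and Hoxd8) and 3 gave both (Hoxa9, Hoxb3 and Hoxb4). With 1 probe set per gene, 1 of 20 tested Hox genes fell, against 1.1% of 7245 genes, and 0 rose, against 0.594%. That gene was Hoxd1 (−1.07, SE 0.12, limma adjusted p = 0.00179). Without control 1, Hoxd3 (−1.08, adjusted p = 0.0161), Hoxd8 (−0.67, adjusted p = 0.0299) and Hoxd9 (−0.61, adjusted p = 0.0362) were called lower as well in limma's gene fit, so that all 4 tested Hoxd genes passed, in a fit that called 1.97% of all 7245 genes lower. In the probe set fit without control 1, Hoxd1 alone passed and Hoxd3 had an adjusted p of 0.0527 in limma, where 0.708% of all tested probe sets were called lower. Control 1 is the only high-ratio control, so without it genotype and the split of arrays are largely confounded. With the split as a block, the differences were −0.45 (Hoxd3), −0.22 (Hoxd8, 1431099_at) and −0.01 (Hoxd9), and Hoxd1 alone was called.

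Hox proteins bind DNA with cofactors of the Pbx, Meis and Pknox families, and 0 of 6 tested cofactor genes passed, with a median difference of 0.02. Pbx2, Pknox1 and Pbx3 had −0.14, 0.06 and −0.04. Of 19 tested genes that set Hox expression along the axis (Cdx factors and Wnt, FGF and Gdf11 signalling), 0 passed, 17 were negative and the median was −0.24. Lef1, a nuclear effector of Wnt, had −0.46 (limma adjusted p = 0.114), the caudal factor Cdx4 −0.44 (adjusted p = 0.172) and Wnt3a −0.51 (adjusted p = 0.234). Over all 7245 genes the median was −0.01. In the high-ratio and low-ratio sets Lef1 had −0.52 and −0.22, Cdx4 −0.72 and −0.26, and Wnt3a −0.77 and −0.12. Most of the 17 negative genes of this list did not keep their sign in both sets. Some turned positive in the low-ratio set, among them Cdx2 (−0.30 and 0.06), and others in the high-ratio set or in both. Lef1, Cdx4 and Wnt3a belong to the minority that stayed negative in both sets, so their values do not stand for the list.

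Retinoic acid switches on the first genes of the clusters. Of 7 tested genes of its pathway 0 passed, with a median of −0.025, and Aldh1a2, the enzyme that makes it in the trunk, had 0.44 (limma adjusted p = 0.214), Crabp2 0.26 and Crabp1 −0.28. The polycomb list, most of whose genes help to keep Hox clusters silent, had 0 of 15 called and a median of −0.10. Cbx2 had −0.33, Phc1 −0.22 and Mtf2 −0.19. Trithorax genes, which keep the clusters active, had 0 of 14 called and a median of −0.16. Here Kdm6a had −0.26, Psip1 −0.21 and Rbbp5 −0.26. Of 12 tested genes in the wider neighbourhood of the clusters 0 passed, with a median of 0.01. Evx1, beside the Hoxa cluster, had −0.23, Cbx1 0.16 and Nfe2l1 −0.21. Mtx2, which RefSeq places next to Hoxd1 and which is named after its value was seen, had 0.01 (SE 0.10, limma adjusted p = 0.963).

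Among 10 tested homeobox genes outside the clusters, Prrx1 of limb and lateral mesoderm fell (−1.32, SE 0.14, limma adjusted p = 0.00178), Pax3 of the dorsal somite and neural tube rose (0.94, SE 0.15, limma adjusted p = 0.0145) and 8 did not pass, among them Mnx1 (−0.45). Of 7 tested genes listed here as possible Hox targets, which these data do not test as such, the syndecan Sdc4 rose (0.97, SE 0.13, limma adjusted p = 0.0076), and Epha4 had −0.35 and Bmp4 0.62.

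Hox genes are also expressed in neural tube, lateral mesoderm and tail bud, so markers of these and other tissues were read beside them on the gene fit. Over all 7245 genes of that fit 1.1% were called lower and 0.594% higher. Of 12 PSM markers 8 were tested, 2 fell (Ripply2, −1.56, and Pcdh8, −1.29, limma adjusted p = 0.0485) and all 8 were negative, and their summed signal was 14466 to 16345 in control and 8571 to 11901 in mutant. Tbx6 had −0.76 (limma adjusted p = 0.0617). Of 7 lateral and intermediate mesoderm markers 3 fell, Prrx1, Hand2 (−0.95) and Foxf1 (−0.87), and 5 were negative (median −0.39). Their summed signals were 7438 to 7829 in control and 4857 to 5717 in mutant. Of 9 tail bud markers 0 passed and 8 were negative (median −0.24, sums 17860 to 20529 and 13945 to 20708), with Wnt3a, Sp5 (−0.48) and Cdx2 (−0.24) having the smallest p. Of 6 neural tube markers 0 passed (median 0.13, sums 17416 to 20203 and 16376 to 20353), with Sox21 at 0.54, Cdh2 at −0.19 and Sox2 at 0.23. Of 8 somite markers Pax3 rose and 7 did not pass (median −0.04, sums 5486 to 7892 and 5132 to 7575), among them Aldh1a2 and Foxc2 (−0.75).

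Markers of epithelia, vessels and blood and genes of the p53 response were read in the same way, beside the same shares over all genes. Of 7 surface ectoderm markers 3 rose, Epcam (0.60), Krt19 (1.12) and Perp (1.24), and all 7 were positive (median 0.605). Their summed signals were 15882 to 18186 in control and 24204 to 25723 in mutant. Of 9 markers of the gut, 8 were positive (median 0.48), Sox17 fell (−1.06) and Epcam rose, with Cldn7 at 0.50. Their sums were 9613 to 11878 in control and 12128 to 24986 in mutant, so the mutant pools were uneven. Of 3 notochord and floor plate markers Krt19 rose, with Foxa2 at 0.37 and Shh at 0.05 (sums 3118 to 3909 and 3714 to 5258). All 8 endothelial markers were negative (median −0.56) and Kdr fell (−0.82), with Aplnr at −0.72 and Fli1 at −0.77 (sums 11865 to 12774 and 6796 to 9721). Of 6 blood markers 4 were positive (median 0.49) and Car2 rose (0.72), with Hbb-bh1 at 0.50 and Tal1 at −0.74 (sums 34370 to 47088 and 46663 to 64304). Of 12 p53 response genes 9 rose, led by Ccng1, Cdkn1a and Trp53inp1, and all 12 were positive (median 0.98, sums 9319 to 9934 and 24563 to 27790). Some called genes stand on more than 1 list and count in each: Perp is on the surface ectoderm and p53 lists, Epcam on those of surface ectoderm and gut, Krt19 on those of surface ectoderm and notochord, Prrx1 on those of homeobox genes and lateral mesoderm, and Pax3 on those of homeobox genes and somite. The 21 called genes of all these lists, each counted once, kept the sign of their difference within both sets of arrays. They were called on these same arrays, so this is no separate support for them. No marker of these lists read 0 on any array. The part of these tissues in the Hox differences was not tested.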

How the data were processed

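Per the submitters' processing notes, the authors used Affymetrix Expression Console and MAS5 and deposited linear intensity values that had been summarised per probe set and scaled. Software versions, the target of the scaling and how the probe sets of the table were chosen are not given in the sources used here. Per the labels' protocols, RNA was purified with a PicoPure kit and labelled with a 3' IVT Express kit. The authors' scaling was kept, and the median signal was 491 to 535 per array. The number of arrays limits the precision.

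Signals were taken as log2(signal + 1), and 11731 of 19551 probe sets lay at or above the 40th percentile of mean log2 signal. Mutant and control pools were compared with limma 3.58.1 (R 4.3.3), with an intensity trend and two-sided moderated tests, first over probe sets and then over 7245 genes, each by its tested probe set with the highest mean. The fit was tested on simulated data. The main fit did not pair the arrays by replicate number. Residual r between the control and mutant pool of a number was 0.20, −0.45 and 0.37 for numbers 1, 2 and 3. These 3 values cannot settle whether the arrays are pairs. Both arrays of number 1 were high-ratio and both of number 3 low-ratio.

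The members, the lists of cofactors, axial signals, retinoic acid, polycomb, trithorax, neighbouring, homeobox and possible target genes, and the marker lists were chosen with earlier results of these data known, and so were the tests, alternatives and the split of arrays at a dap ratio of 15. All members may be named. Full values go to called members and to the 3 tested probe sets with the smallest p per cluster, with all probe sets of those genes, and of each list called genes and up to 3 with the smallest p are named. In each summed signal a gene counts by its probe set with the highest mean. Gene names come from the platform annotation supplied, which gives 1 symbol to 17348 probe sets, and promoters from RefSeq (GRCm38.p6). The authors' files name no genome build.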

Additional observations from a re-analysis of the deposited data

How the results depend on the processing

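Hoxd1 kept its direction in all 19 alternatives, with differences of −1.17 to −0.98, and its call in all but the equal-variance test without moderation (adjusted p = 0.123), where 0 Hox probe sets passed and 1 was lower at an unadjusted p under 0.05. Array quality weights gave control 1, the only high-ratio control, a weight of 0.315 and control 3 one of 4.29. With them 6 Hox probe sets were called lower (Hoxd1, Hoxd3, Hoxd8, Hoxb6, Hoxb9 and Hoxc4), against 5.71% of all tested probe sets. That fit thus leans on the low-ratio control arrays. With the replicate block Hoxd1 was the only Hox probe set called (−1.07, adjusted p = 0.00321), as it was with the spike-in ratio block. Hox genes called lower numbered 1 to 4 when 1 array was left out, the highest count without control 1, where no high-ratio control is left. Of genes on the 8 companion lists, 1 was lower and 2 were higher, with 3 and 4 under the spike-in ratio block, and 1 to 2 and 0 to 2 when 1 array was left out.

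Leaving out 1 array moved the median difference between −0.30 and −0.02 over all members, −0.22 and 0.035 for Hoxa, −0.24 and 0.036 for middle and −0.24 and 0.21 for posterior members, each lowest without control 1. Within the high-ratio arrays the medians were 0.21 (Hoxa), 0.077 (Hoxb), 0.46 (Hoxc) and −0.0064 (Hoxd), and within the low-ratio arrays that of middle members was −0.10. That comparison was chosen after seeing the data. A filter at the 60th percentile gave −0.39 for middle members, with fewer probe sets. The spike-in ratio block turned Hoxa3 (1427433_s_at) to 0.022 and Hoxa9 (1455626_at) to 0.034. Leaving out 1 array gave Hoxa5 (1448926_at) −0.010 to 0.22 and that Hoxa9 probe set −0.12 to 0.049. The cause was not tested. Of 276 values of 15 named probe sets under an alternative, 265 kept direction and side of the threshold. Hoxd1 alone of these was called in the main fit, so for the others that side means not called. Differences within the sets of arrays are not among these values. Values near the filter's signal of 349 rest on dim probe sets.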

Other observations

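Some Hox probe sets carry more than 1 symbol or belong to antisense genes and fall outside the members. Hoxd3os1, an antisense gene beside Hoxd3, read 622, 770 and 605 in control and 346, 486 and 428.5 in mutant. All mutant pools lay below the control pools, with a difference of −0.67 (SE 0.17, limma adjusted p = 0.122), and it was −0.60 within the high-ratio and −0.67 within the low-ratio arrays. Of the 2 probe sets shared by Hoxd4 and Hoxd3, 1450209_at had −0.51 (SE 0.27, limma adjusted p = 0.461) and 1421537_at 0.11 (SE 0.18, limma adjusted p = 0.847), so they differed in sign. The probe set shared by Hoxb8 and Hoxb7 read 1261, 1920 and 1847 in control and 1063, 972 and 1741 in mutant, lowest in the high-ratio arrays of each genotype, with a difference of −0.44 (SE 0.24, limma adjusted p = 0.468). Hoxb5os, antisense in the Hoxb cluster, had a mean signal of 22552 ± 2180 (SD, n = 3) in control and 23230 ± 2237 in mutant, a difference of 0.04 (SE 0.10, limma adjusted p = 0.902).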
